A study of Mus musculus with 3 samples.

Results

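The DNA methyltransferase genes Dnmt1 and Dnmt3l were followed in RNA of ovulated mouse oocytes. They were chosen by name, and are 2 of the 55450 genes of the annotation. The RNA came from 3 litters, with 1 library per litter and no other group. Per the labels, the oocytes were of mixed strain and came from superovulated LSD1 FL/FL females that were ZP3::Cre negative, so that both Kdm1a alleles were floxed and no Cre was present to delete them. Oocytes were collected by E0.5, lysed, and their total RNA was amplified with SPIA (single primer isothermal amplification, a linear copying of cDNA) before library construction. The design text calls these oocytes wild type. The libraries held 35183199, 31787887 and 32028802 alignments in litters 1, 2 and 3.

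Methyl groups on cytosines of CpG pairs are copied to the new strand after DNA replication by Dnmt1, the maintenance methyltransferase. Mouse oocytes are known to start Dnmt1 at an oocyte-specific first exon far upstream of the somatic one, which moves the start codon downstream and gives a shorter protein called Dnmt1o. Dnmt3l has no catalytic activity of its own; it binds the de novo methyltransferase Dnmt3a and is needed in growing oocytes to set the methylation of maternal imprints. Its known oocyte promoter lies inside the neighbouring gene Aire, which runs in the opposite direction, while other promoters serve male germ cells.

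The promoters show which starts the transcripts could use, so 4 are printed here, in lower case with CpG pairs in capitals. They are RefSeq sequences on GRCm38.p6 of 300 bases each, read 5' to 3' on the gene's strand. All 6 RefSeq promoters of the genes matched an annotated transcript start. The first pair belongs to Dnmt1, on the minus strand: the upstream start of transcript Dnmt1-202 (chr9:20959839-20960138) and the next start, that of Dnmt1-201 (chr9:20952930-20953229), whose first exon holds the start codon of the full-length protein. The other pair belongs to Dnmt3l, on the plus strand: the upstream start of Dnmt3l-205 (chr10:78042037-78042336) and that of Dnmt3l-201 (chr10:78049592-78049891).
Dnmt1-202: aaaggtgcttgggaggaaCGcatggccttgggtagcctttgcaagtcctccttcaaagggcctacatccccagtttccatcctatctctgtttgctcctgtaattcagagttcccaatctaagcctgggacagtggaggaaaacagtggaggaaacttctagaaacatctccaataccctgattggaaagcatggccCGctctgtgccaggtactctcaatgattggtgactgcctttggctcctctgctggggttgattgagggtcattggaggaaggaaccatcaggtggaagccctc
Dnmt1-201: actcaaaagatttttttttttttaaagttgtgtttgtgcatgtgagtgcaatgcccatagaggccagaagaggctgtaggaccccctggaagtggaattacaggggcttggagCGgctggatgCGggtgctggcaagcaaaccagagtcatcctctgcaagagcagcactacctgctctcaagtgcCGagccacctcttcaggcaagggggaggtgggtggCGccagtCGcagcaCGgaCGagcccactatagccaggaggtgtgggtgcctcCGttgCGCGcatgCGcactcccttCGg
Dnmt3l-205: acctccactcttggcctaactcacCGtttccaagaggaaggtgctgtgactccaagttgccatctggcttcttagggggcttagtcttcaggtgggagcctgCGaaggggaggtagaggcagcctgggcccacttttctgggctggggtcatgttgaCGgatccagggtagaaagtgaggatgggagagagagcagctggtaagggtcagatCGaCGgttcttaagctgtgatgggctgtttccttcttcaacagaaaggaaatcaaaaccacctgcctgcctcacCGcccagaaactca
Dnmt3l-201: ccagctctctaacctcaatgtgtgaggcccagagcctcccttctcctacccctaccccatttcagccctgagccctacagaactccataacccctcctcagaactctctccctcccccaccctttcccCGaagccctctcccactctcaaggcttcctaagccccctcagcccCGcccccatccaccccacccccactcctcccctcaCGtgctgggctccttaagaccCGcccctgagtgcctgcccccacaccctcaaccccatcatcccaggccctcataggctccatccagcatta

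The Dnmt1 promoters differed widely in CpG pairs. The upstream one held 2, fewer than most promoters, since 14.1% of 32851 RefSeq mouse promoters of this length held fewer and the median was 7. The Dnmt1-201 promoter held 12, above 60.4% of promoters, and that of the next start downstream, Dnmt1-203, held 33, above 91.4%. The Dnmt3l promoters were alike in this respect, with 6 at Dnmt3l-205, 4 at Dnmt3l-201 and 3 at the internal start shared by Dnmt3l-202, Dnmt3l-203 and Dnmt3l-206. Of 4 short motifs searched on both strands, overlapping matches included, CCAAT matched 5 times in the Dnmt1-202 promoter, 0 times in that of Dnmt1-201 and 3 times in that of Dnmt1-203. At least 1 CCAAT was found in 37.4% of all promoters and at least 5 in 89 of them (0.271%), a limit set at this promoter's own count. The 3 Dnmt3l promoters held 0. GGGCGG was in 35.7% of all promoters and matched once or more in those of Dnmt1-203, Dnmt3l-205 and Dnmt3l-201, while TATAAA (13.6% of all promoters) was in none of the 6. The E-box CANNTG, held by 72.3% of all promoters, matched 4 times at Dnmt3l-205, 1 time at Dnmt3l-201 and 0 times at the internal Dnmt3l start. Such matches describe the letters and are not evidence of binding.

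The deposited tracks are on mm9, while the exon annotation at hand (GENCODE M21) is on GRCm38, so each gene was placed from its coverage. The exon spacing of 1 transcript per gene was slid base by base over the mm9 depth, and exon position was correlated with log2(depth + 1). The 39 exons of Dnmt1-202 fell at chr9:20711655-20764334 (mm9, minus strand), with a correlation of 0.873 against 0.296 at the best other place within 4 Mb. Leaving out its first exon gave the same place, as did each litter alone. The 14 exons of Dnmt3l-205 fell at chr10:77505031-77526366 (mm9, plus strand), with a correlation of 0.851 against 0.483 elsewhere. Single litters moved that place by at most 1 base. Places within 0.01 of the best correlation spanned 12 bases for either gene, so exon borders are known to about that distance. The correlations are across bases, which share reads, and serve as a description.

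The samples carried the markers of oocytes. The 8 oocyte marker genes that could be placed had a median of 183 RPKM, and their sums were 2007, 2013 and 3732 RPKM in litters 1, 2 and 3. Dppa3 made the sum of litter 3 the highest: without it the sums were 1654, 1749 and 1127 RPKM, and 5 of the other 7 genes were lowest in litter 3. RPKM here is the number of alignments per kilobase of start positions at which a 72-base alignment lies inside 1 exon, per 1e6 alignments of the library. All 9 placed markers of cumulus and granulosa cells lay below 1 RPKM, with sums of 1.55, 0.240 and 0.184 RPKM, and Cd44, Amh, Foxl2 and Ptx3 were at 0 in every litter. The blood marker Ptprc was also at 0, and the other 4 of the 5 listed blood markers were not measured. Placing a gene by its own exons needs coverage, so it favours expressed genes. It placed 7 of the 8 oocyte markers, and 2 of the 10 listed were not placed. The 9 cumulus and granulosa markers and Ptprc were placed by neighbouring genes. Across the genome, 1903 of 10913 windows of 1 kb (17.4%) differed between litters by more than 4-fold beyond counting error. Litter 3 stood apart: 115 windows differed without it, 1203 without litter 2 and 1691 without litter 1. In such bulk RNA, fewer cells of a type and less RNA per cell cannot be told apart.

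Dnmt1 was much more abundant than Dnmt3l in these oocytes. Dnmt1 measured 272, 258 and 202 RPKM in litters 1, 2 and 3, or 244 ± 37.2 RPKM (SD, n = 3). These levels rest on 25335, 21726 and 17116 alignments over 2646 start positions, and their 95% Poisson intervals were 269 to 276, 255 to 262 and 199 to 205 RPKM. Litter 3 lay below the other litters by more than counting error, and litter 2 below litter 1. The order of litters 1 and 2 did not hold under other ways of counting: with each start counted once they had 111.5 and 111.7 RPKM, and by the median over exons 73.7 and 75.5, with litter 3 lowest in both. Without litter 3 the Dnmt1 level was 265 RPKM.

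Dnmt3l measured 8.99, 8.99 and 5.41 RPKM in litters 1, 2 and 3, or 7.80 ± 2.06 RPKM (SD, n = 3). Only 270, 244 and 148 alignments over 854 start positions stood behind these levels, with intervals of 7.95 to 10.1, 7.90 to 10.2 and 4.57 to 6.36 RPKM. Litters 1 and 2 could not be told apart at this depth, and litter 3 lay below both. The equal levels of litters 1 and 2 came from different exons: without the last exon the levels were 3.72, 9.97 and 2.87 RPKM in litters 1, 2 and 3. With each start counted once they were 35.4, 29.2 and 27.7 RPKM of the smaller total, so litter 3 then lay close to litter 2. Without litter 3 the Dnmt3l level was 8.99 RPKM. Intervals cover counting error only, and alignments that share a start may be copies of 1 molecule.

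Both levels come from 1 library per litter, so their ratio needs no scaling between libraries. Dnmt1 exceeded Dnmt3l by 30.3-fold in litter 1, 28.7-fold in litter 2 and 37.3-fold in litter 3, a mean of 32.1 ± 4.58-fold, or 4.996 ± 0.20 on the log2 scale (SD, n = 3). The direction was the same in 3 of 3 litters. No test was run, as an exact sign-flip test of 3 values cannot give a two-sided p below 0.25. The size of the ratio depended on repeated start positions, which made up 85.2% to 85.6% of each library. With each start counted once, the log2 ratio was 1.80 ± 0.14, with Dnmt1 at 107 and Dnmt3l at 30.8 RPKM of the smaller total. In Dnmt1, 56.4%, 51.6% and 45.6% of the possible start positions were used in litters 1, 2 and 3. In Dnmt3l the shares were 17.9%, 13.5% and 13.1%.

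Reads lay in exons and almost none in introns. Dnmt1 introns offered 42530 start positions and held 128, 49 and 0 alignments in litters 1, 2 and 3, or 0.0314%, 0.0140% and 0% of the exon level per kilobase. Dnmt3l introns offered 16527 start positions and held 0, 26 and 0 alignments, the 26 being 0.551% of the exon level of litter 2. A count of 0 allows up to 3 alignments. Alignments wholly inside 1 exon made up 78.5% to 84.1% of those touching Dnmt1 exons and 88.6% to 92.8% of those touching Dnmt3l exons. A further 10.9% to 15.8% at Dnmt1 and 5.02% to 11.4% at Dnmt3l ran past an exon border by 1 to 5 bases. The remaining 5.02% to 5.72% at Dnmt1 and 0% to 4.68% at Dnmt3l ran past by more than 5 bases. The intron counts above leave out all overhanging alignments. By mean depth, which includes them, the Dnmt1 intron level was 0.156%, 0.131% and 0.129% of the exon level in litters 1, 2 and 3.

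Of the alternative first exons at the 5' end of Dnmt1, only the upstream one was covered, in all 3 litters. This first exon of Dnmt1-202 (chr9:20764179-20764334, mm9, 156 bases) held 75, 23 and 46 alignments in litters 1, 2 and 3, or 25.1, 8.51 and 16.9 RPKM. They began at 39, 17 and 26 different bases and covered 94.9%, 95.5% and 94.9% of the exon. The first exon of Dnmt1-201 (chr9:20757154-20757425, 272 bases), where the full-length reading frame begins, held 0 alignments in each litter although it offers 201 start positions. The first exon of Dnmt1-203 (chr9:20756292-20757069, 778 bases) also held 0 over 707 start positions. The shorter first exons of Dnmt1-205 and Dnmt1-207 that overlap these held 0 as well. Those of the retained-intron transcripts Dnmt1-204 and Dnmt1-206 overlap later exons of Dnmt1-202 and were not compared. A count of 0 need not mean absence, since exon 30 of Dnmt1-202 held only 0, 0 and 1 alignments.

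Among the first exons of Dnmt1-202, Dnmt1-201 and Dnmt1-203, the upstream one held 100% of the alignments in each litter. Exact Clopper-Pearson lower limits were 95.2%, 85.2% and 92.3%. These limits take alignments as independent, but the 75, 23 and 46 alignments used 39, 17 and 26 starts. Some may be copies of 1 molecule, which would make the limits too narrow. Against the limit of 3 alignments per library that a count of 0 allows, its level was at least 59.1-fold, 18.1-fold and 36.3-fold higher than that of the Dnmt1-201 exon in litters 1, 2 and 3. Against the Dnmt1-203 exon the bounds were 207.9-fold, 63.8-fold and 128-fold. These bounds take the upstream counts as exact; the 95% Poisson interval of the lowest, 23 in litter 2, was 14.6 to 34.5. The exons not covered are richer in G and C, at 65.4% and 59.4%, than the upstream exon, at 51.3%, and hold 25 and 35 CpG pairs against 1. The part of base composition in the zero counts was not tested. The most upstream base of any alignment touching the upstream exon lay 30 bases before the annotated start in litter 1, at it in litter 2 and 8 bases inside it in litter 3.

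The annotated reading frames differ by the same choice of first exon. Dnmt1-201 has 1620 codons and starts in its first exon. Dnmt1-202 has 1501 codons, 119 fewer, and starts in exon 4 (chr9:20745819-20746029). That exon had a depth of 21.8, 27.1 and 8.59 per 1e6 alignments in litters 1, 2 and 3, and exon 3 before it 4.97, 3.91 and 3.63. Depth per 1e6 is the mean number of alignments over an exon's bases for each 1e6 alignments of the library. Both exons exceeded the upstream first exon, at 1.47, 0.334 and 0.663 per 1e6 alignments, in every litter. Exon 2, of 37 bases, is shorter than an alignment and cannot hold one. Dnmt1-203 also starts its reading frame in exon 4, so the covered coding exons do not tell it from Dnmt1-202. Their first exons differ, but gapless alignments do not link a first exon to exon 4.

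**Figure D1:**
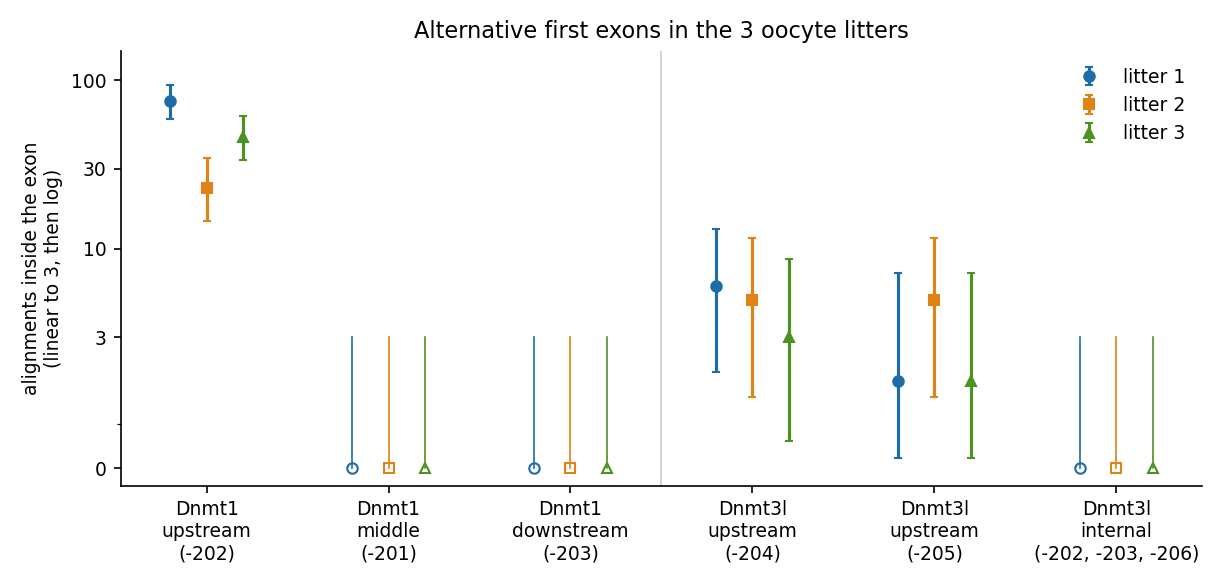
Alignments inside each alternative first exon (vertical axis, linear to 3 and logarithmic above) by first exon (horizontal axis), with 1 symbol per litter; bars are exact 95% Poisson intervals, and open symbols at 0 carry a line to the limit of 3 counts. The upstream Dnmt1 exon held 75, 23 and 46 alignments, the other Dnmt1 first exons shown held 0, and the upstream Dnmt3l exons held 2 to 6.

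Dnmt3l also had reads at its upstream starts. The first exon of Dnmt3l-205 (chr10:77505031-77505132, mm9, 102 bases) held 2, 5 and 2 alignments in litters 1, 2 and 3, and 16, 6 and 2 touched it. The first exon of the noncoding transcript Dnmt3l-204 (chr10:77504691-77504871, 181 bases) held 6, 5 and 3, and 9, 28 and 8 touched it. Its most upstream covered base was 77504646, 77504646 and 77504647 in litters 1, 2 and 3, which is 45, 45 and 44 bases before the annotated start. These 3 ends lay within 1 base of each other. At the Dnmt3l-205 exon the most upstream covered bases were 77504991, 77505050 and 77505051, that is 40 bases before the annotated start in litter 1, and 19 and 20 bases inside the exon in litters 2 and 3.

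The Dnmt3l-205 exon lies inside the span of Aire and touches no Aire exon. Aire, which encodes a transcriptional regulator of thymic self-tolerance, had 6, 14 and 7 alignments over its 14 exons, or 0.180, 0.466 and 0.231 RPKM in litters 1, 2 and 3. The tracks carry no strand, so reads of either gene in this stretch cannot be told apart by direction. The first exon of Dnmt3l-201 had a depth of 0 in every litter, but at 70 bases it is too short to hold an alignment. The 57 bases that only Dnmt3l-208 uses were also uncovered. The internal first exon of Dnmt3l-202, Dnmt3l-203 and Dnmt3l-206 (chr10:77518079-77518460, 382 bases) held 0 alignments in each litter over 311 start positions, which allows up to 0.274, 0.303 and 0.301 RPKM. The protein-coding transcripts Dnmt3l-201, Dnmt3l-205 and Dnmt3l-208 have 421 codons, and those from the internal start have 126.

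Along the exons, Dnmt1 depth ranged over several orders of magnitude in a pattern shared by the litters. Of its 39 exons 33 can hold an alignment, and 32 of these 33 were covered in all 3 litters. In 26 exons over 90% of the bases were covered in every litter. Exon 13, of 65 bases, was reached only by alignments that overhang it. The highest was exon 10 (chr9:20736561-20736645), with 109, 138 and 141 per 1e6 in litters 1, 2 and 3. Its 14 possible start positions were all used in each litter, by 4044, 4643 and 5038 alignments. Exon 12 followed, with 54.4, 68.9 and 87.6 per 1e6. The 3 exons of highest mean depth held 41.8%, 45.3% and 47.5% of the exon alignments, and the median exon mean was 2.91 per 1e6.

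The low end of Dnmt1 lay towards the 3' end. Exon 30 (chr9:20717018-20717102) had 0, 0 and 0.078 per 1e6 in litters 1, 2 and 3. Exon 38 had 0.021, 0.022 and 0.218. The last exon, 39 (chr9:20711655-20712007), had 3.83, 1.63 and 1.12. Over the 33 exons that can hold an alignment, length and log2(mean depth per 1e6 + 0.1) were hardly related. Their Pearson correlation was -0.12, and that of the same log2 depth with GC content was -0.16. Neighbouring exons are not independent points, so these are descriptions.

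Litter 3 departed from the others in some exons along Dnmt1. Exons 20, 21, 22 and 24 had 0.511, 0.336, 3.997 and 4.53 per 1e6 in litter 3. In litter 1 they had 4.16, 1.94, 27.2 and 21.1, and in litter 2 they had 4.07, 2.35, 28.5 and 14.7. The low exons did not form an unbroken run, since exon 23 had 22.7 in litter 3, between 25.6 in litter 1 and 16.01 in litter 2, and exon 26 was highest in litter 3 at 30.7. Exons 8, 12 and 15 went the other way: litter 3 had 28.3, 87.6 and 57.3 per 1e6 alignments, above both other litters. Litter 3 was the highest of the litters in 6 of the 14 exons with depth among exons 1 to 19, and in 3 of the 20 among exons 20 to 39. Litters 1 and 2 had the closest exon patterns, with a Pearson correlation of 0.98 on the log2(scaled depth + 0.1) scale. Litter 3 gave 0.91 with litter 1 and 0.90 with litter 2.

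**Figure D2:**
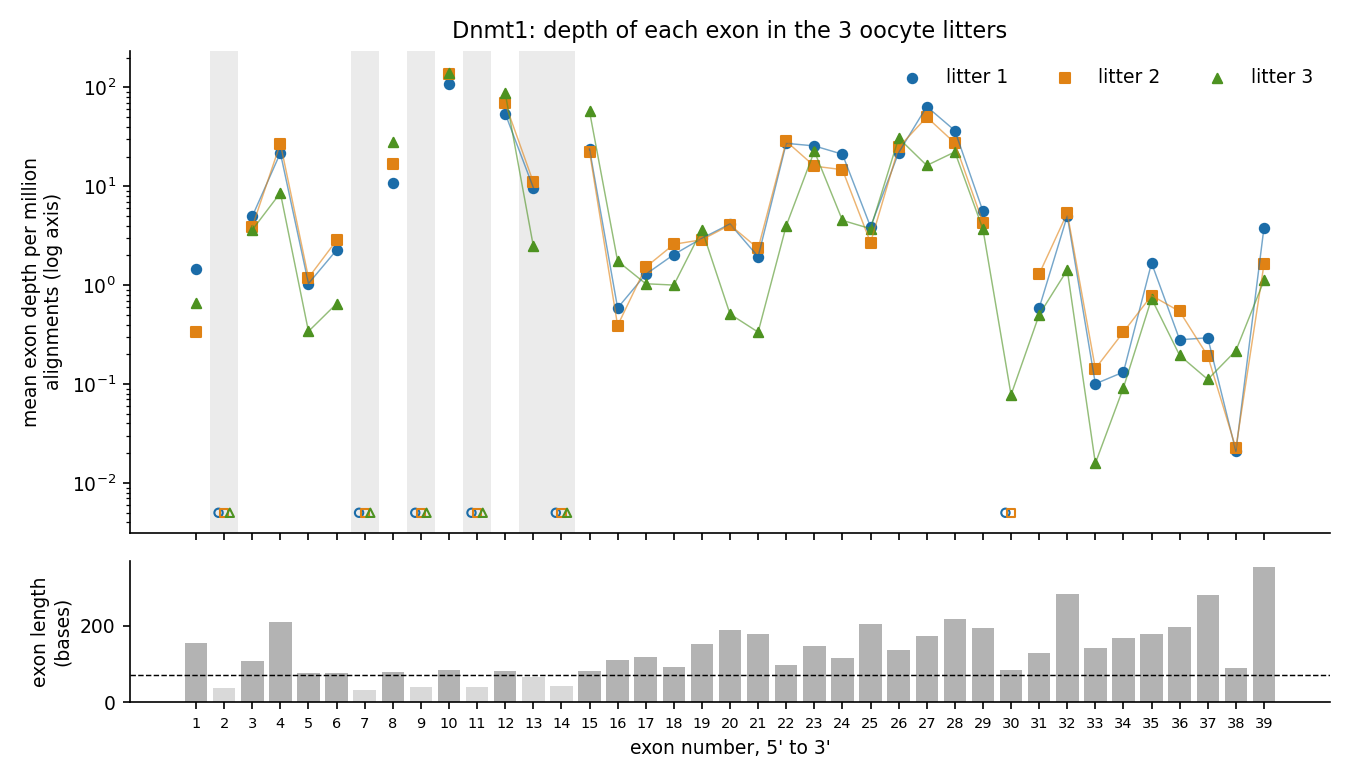
Upper panel, mean depth per 1e6 alignments of each Dnmt1 exon (log axis) by exon number from 5' to 3', with 1 symbol per litter; grey bands mark exons under 72 bases and open symbols a depth of 0. Lower panel, exon length in bases, with the dashed line at 72. Exon 10 was highest in all litters, and exons 20 to 22 were lowest in litter 3 at 0.511, 0.336 and 3.997 per 1e6.

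In 1 kb windows tested over the whole genome, 1 of the 13 Dnmt1 windows with enough alignments was called as differing between litters, against 17.4% of all windows tested. That window (chr9:20726001-20727000) had 15.7, 16.5 and 2.19 CPM in litters 1, 2 and 3, a 7.56-fold range, and contains exons 20 and 21. CPM is the count per 1e6 alignments of the library. The test sets libraries against counting error, so it compares libraries and not conditions. Leaving out litter 1, 2 or 3, 0 of 11, 12 and 13 tested Dnmt1 windows were called, against 15.1%, 11% and 1.09% of all windows tested. Without litter 1 or litter 2, the window called above fell below the mean of 10 CPM and was not tested. Those runs therefore do not show whether its low value in litter 3 would be called. With a fold limit of 2, 6 of 13 Dnmt1 windows were called, against 54.5% of all tested. With a minimum of 1 CPM, 4 of 21 Dnmt1 windows and 1 of 3 Dnmt3l windows were called, against 35.1%. The highest Dnmt1 window (chr9:20736001-20737000), which contains exon 10, had 131, 164 and 167 CPM, and ranked 617th among 303433 windows with any alignment.

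Dnmt3l exons were thinly and unevenly covered. Of 14 exons 13 can hold an alignment, and 13, 11 and 11 were covered in litters 1, 2 and 3. The last exon, 14 (chr10:77525931-77526366), was the highest on average, with 206, 89 and 103 alignments in litters 1, 2 and 3 and depths of 0.971, 0.462 and 0.531 per 1e6. Litter 2 differed at exon 8 (chr10:77515456-77515627), where it had 115 alignments against 21 in litter 1 and 8 in litter 3, or 1.54, 0.2499 and 0.130 per 1e6 in litters 2, 1 and 3. These 115 alignments used 26 start positions. Exons 6 and 9 were covered in litter 1 alone, by 4 and 2 alignments. The 3 exons of highest mean depth held 86.3%, 84.8% and 75% of the exon alignments.

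Agreement between litters was lower for Dnmt3l than for Dnmt1, with exon-wise Pearson correlations of 0.57 between litter 1 and litter 2, 0.73 between litter 1 and litter 3, and 0.49 between the remaining pair. The counts behind them are about 2 orders of magnitude smaller, and whether that accounts for the difference was not tested. Across exons depth and length had a Pearson correlation of 0.62 but a Spearman correlation of 0.21; the last exon was both the longest, at 436 bases, and the highest on average. None of the 22 Dnmt3l windows reached the 10 CPM needed for the test between litters. The highest, the 1 kb from base 77526001 with most of the last exon, had 5.03, 1.26 and 2.12 CPM in litters 1, 2 and 3.

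**Figure D3:**
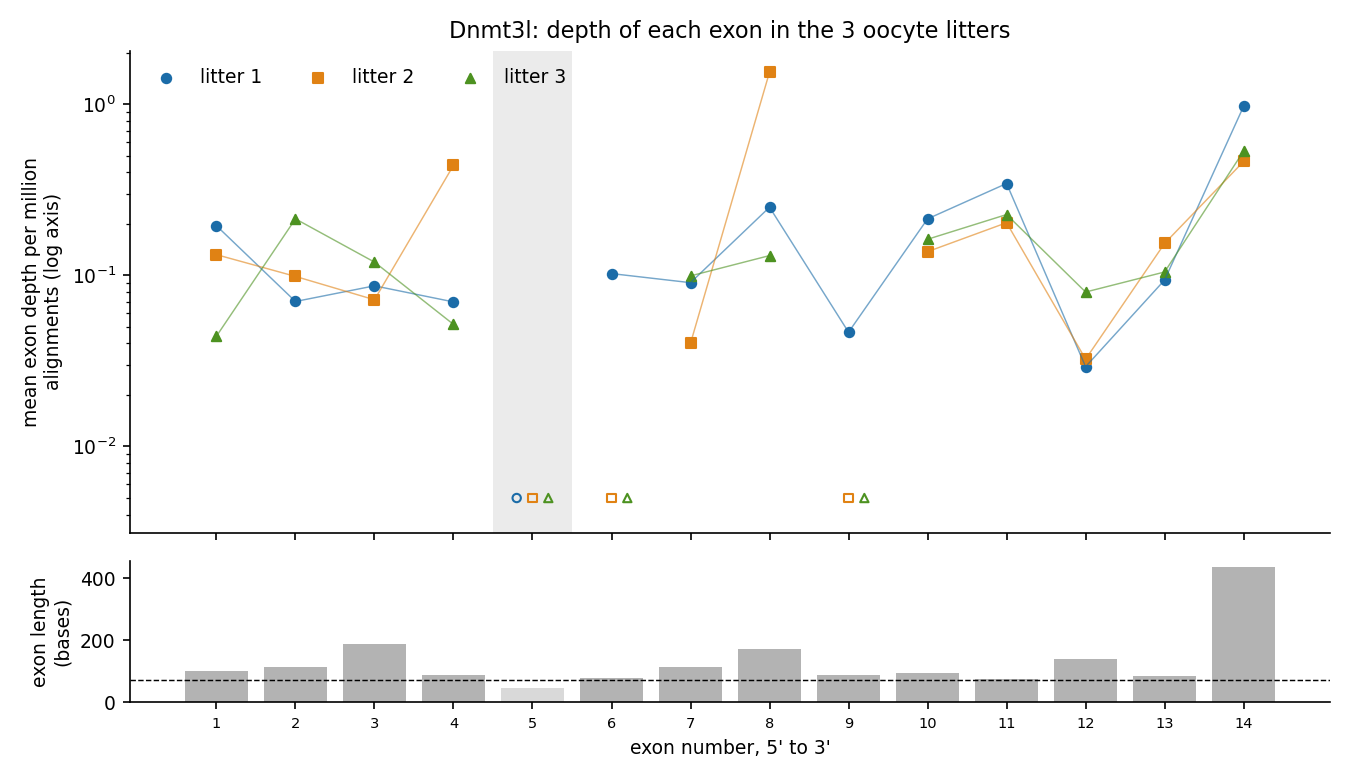
Upper panel, mean depth per 1e6 alignments of each Dnmt3l exon (log axis) by exon number from 5' to 3', with 1 symbol per litter; the grey band marks the exon under 72 bases and open symbols a depth of 0. Lower panel, exon length in bases, with the dashed line at 72. Litter 2 stood out at exon 8 with 1.54 per 1e6 alignments, and exon 14 had 0.971, 0.462 and 0.531 in litters 1, 2 and 3.

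The spliced messages had different profiles, with Dnmt1 low towards its 3' end and Dnmt3l higher on average towards its 3' end. When Dnmt1 was cut into 3 segments of equal length, it had 521 ± 60.6 RPKM in the 5' segment, 350 ± 108 in the middle and 26.2 ± 13.1 in the 3' segment (SD, n = 3). In litter 1 the 5' and middle segments were level, at 451.3 and 450.6 RPKM. The 5' segment held 8448, 9493 and 9378 alignments in litters 1, 2 and 3. Of these, exon 10 held 4044, 4643 and 5038, and exon 12 held 1169, 1385 and 1841. The 5' segment was not measured without these exons. The upstream first exon averaged 16.8 RPKM, below the 3' segment. The log2 ratio of the 3' to the 5' segment was -3.58, -4.29 and -5.51 in litters 1, 2 and 3, or -4.46 ± 0.98 (SD, n = 3). It was negative in 3 of 3 litters, and steepest in litter 3. Counting each start once gave -1.30, and comparing the 3' with the 5' side of the midpoint gave -1.18, so the steepness rests on the repeated starts and on where the segments end. With 10 segments, segment 2, which holds exon 10, reached 4545 ± 872 RPKM, segment 6 formed a second high at 736 ± 235, and segment 9 was the low at 8.71 ± 3.26.

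Dnmt3l had 3.07 ± 0.933 RPKM in the 5' segment, 8.92 ± 8.32 in the middle and 9.63 ± 3.81 in the 3' segment (SD, n = 3). Its log2 ratio of the 3' to the 5' segment was 2.64, 0.76 and 1.47 in litters 1, 2 and 3, or 1.62 ± 0.95. The rise rested on the last exon: without it the ratios were 1.36, -0.81 and 0.05, with a mean of 0.20 ± 1.10. Comparing the 3' with the 5' side of the midpoint gave 1.94, -1.01 and 1.39, so litter 2 was higher on the 5' side under both of these alternatives.

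**Figure D4:**
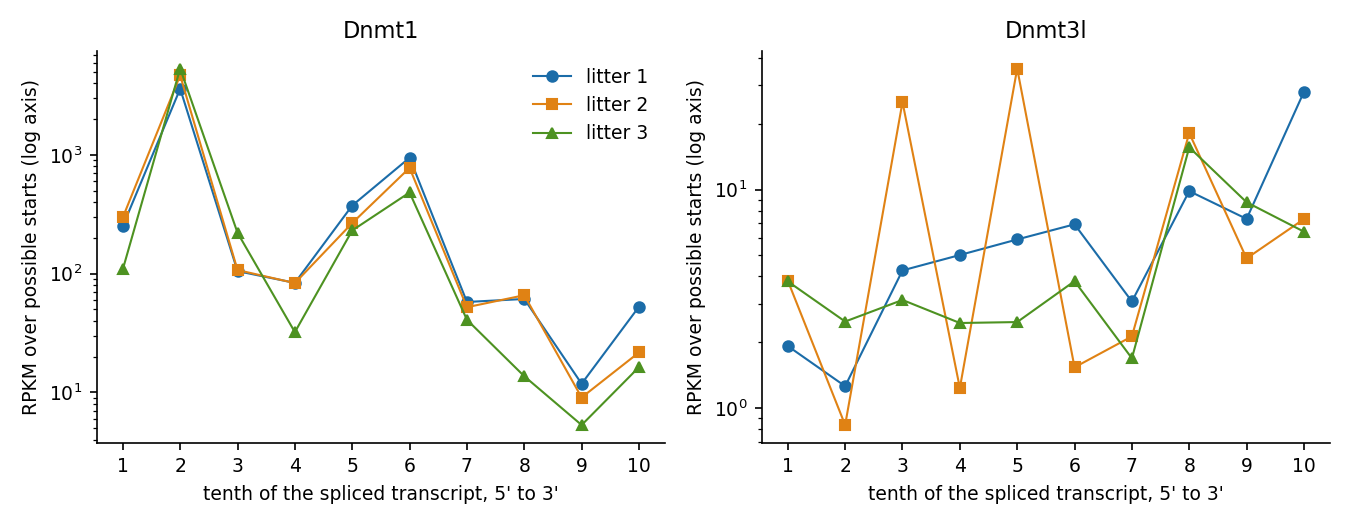
RPKM over possible start positions (log axis, a separate scale for each gene) in 10 equal segments of the spliced transcript from 5' to 3', with 1 line per litter; Dnmt1 on the left and Dnmt3l on the right. Dnmt1 was highest in segment 2 (4545 ± 872 RPKM) and lowest in segment 9 (8.71 ± 3.26), while the highest Dnmt3l values were 35.8 RPKM in segment 5 of litter 2 and 28.0 RPKM in segment 10 of litter 1.

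Reads placed at copies of either gene were looked for. Of 583 runs of start positions in Dnmt1 that were deep enough to compare, 0 recurred elsewhere in the genome with the same counts and spacing in all litters, against 21.2% of the 665490 such runs in the genome. Dnmt3l had no run deep enough. Its annotated pseudogene on chromosome 2, Dnmt3l-ps1, held 0 alignments in each litter.

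The 5 listed partners of Dnmt1 in maintenance averaged below Dnmt1 itself, as did all but 2 of the 19 methylation genes listed. The partners were not recounted with each start counted once, where Dnmt1 measured 107 RPKM. Uhrf1, which brings Dnmt1 to hemimethylated DNA, measured 115, 142 and 64.8 RPKM in litters 1, 2 and 3. Pcna, the sliding clamp that tethers Dnmt1 to replication forks, averaged 111 ± 33.8 RPKM, and Usp7, a deubiquitinase that binds Dnmt1, 53.3 ± 4.37 (SD, n = 3). The chromatin remodeller Hells averaged 4.01 ± 1.73 RPKM, and Uhrf2, the paralogue of Uhrf1, 0.345 ± 0.224.

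Dnmt3a, the catalytic partner of Dnmt3l in oocytes, measured 16.8, 22.0 and 14.2 RPKM in litters 1, 2 and 3, above Dnmt3l in each. Dnmt3b, the other de novo enzyme, averaged 4.87 ± 0.556 RPKM and lay below Dnmt3l in litters 1 and 2 and just above it in litter 3 (5.51 against 5.41 RPKM), where the difference is within counting error. Trdmt1, which methylates transfer RNA, averaged 1.21 ± 0.448 RPKM. The histone modifiers linked to oocyte methylation, the H3K4 demethylase Kdm1b and the H3K36 methyltransferase Setd2, averaged 17.0 ± 3.98 and 24.4 ± 4.34 RPKM. Kdm1a, the floxed gene, measured 17.7, 30.1 and 11.05 RPKM in litters 1, 2 and 3.

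Among the Tet enzymes, which oxidise methylcytosine, Tet3 stood highest with 100, 102 and 79.3 RPKM in litters 1, 2 and 3. Tet2 averaged 1.03 ± 0.221 and Tet1 0.356 ± 0.144 RPKM, and the glycosylase gene Tdg was at 0. Of the genes that protect methylation after fertilisation, Zfp57, a zinc finger protein that binds methylated imprints, averaged 959 ± 101 RPKM. Its corepressor Trim28 averaged 17.8 ± 5.91 and the zinc finger gene Zfp445 7.47 ± 1.99. Dppa3, which shields the maternal genome from Tet3, had 352, 263 and 2605 RPKM in litters 1, 2 and 3, so its mean of 1074 ± 1327 rests on litter 3. Levels of genes with near-identical copies are uncertain, since reads reported at several places may count at each.

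Of these 19 genes 2 averaged above Dnmt1 and 11 above Dnmt3l. Like both methyltransferase genes, 7 were lowest in litter 3, while 10 were highest there. Among them, Tet3 had the litter pattern most like that of Dnmt1, and Trim28 that most like that of Dnmt3l, by the Euclidean distance between centred log2 levels over 3 litters (0.0809 and 0.224). With 3 points this is a description. Outside these genes, the oocyte markers Zp1, Nlrp5 and Ooep lay nearer to Dnmt3l than Trim28 did, at 0.150, 0.176 and 0.214. The other placed oocyte markers lay farther from Dnmt3l, and none was nearer to Dnmt1 than Tet3. Dnmt1 itself lay at a distance of 0.282 from Dnmt3l.

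**Figure D5:**
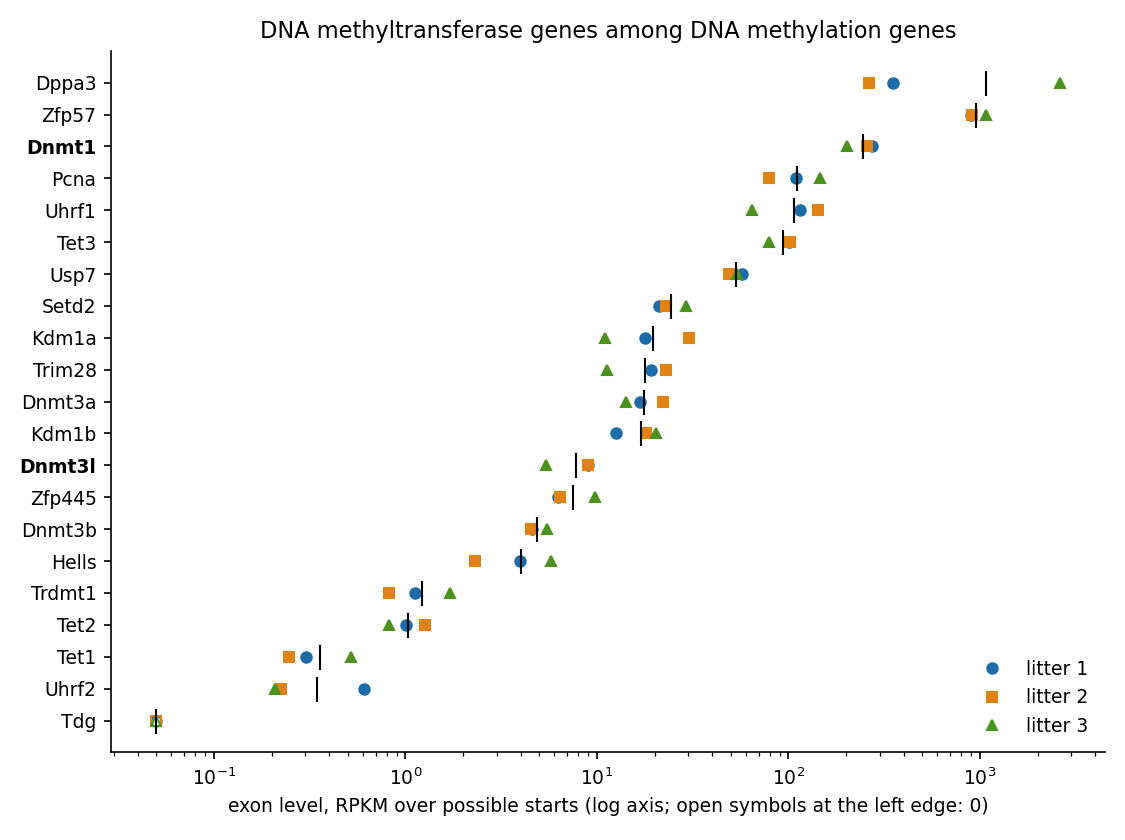
Exon level in RPKM over possible start positions (horizontal log axis) of Dnmt1, Dnmt3l and 19 DNA methylation genes, ordered by mean; symbols are the 3 litters, the vertical tick is their mean, and open symbols at the left edge stand for 0. Dnmt1 (244 RPKM) came after Dppa3 and Zfp57, and Dnmt3l (7.80 RPKM) lay between Kdm1b and Zfp445.

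Little coverage lay outside the exons of the genes in the surrounding intervals. Around Dnmt1, 13 of 47 covered stretches touched no annotated exon, 12 of them in 1 litter only, and they held 0.479%, 0.228% and 0.220% of the alignments there in litters 1, 2 and 3. Around Dnmt3l it was 4 of 18 stretches, 3 of them in 1 litter only, with 0.645%, 8.202% and 3.31% of the alignments.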

How the data were processed

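RNA of ovulated oocytes from 3 litters was measured, 1 library each. The authors deposited coverage signal per library: unscaled depth, the number of alignments over each base. Per the submitters' processing notes, Bowtie and mm9 were used. The version is not given in the sources used here, nor are placements per read or filters. Each track came, per the file headers, from 1 lane (3, 4 or 8). Reads reported at several places may count at each, and strand is not kept.

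Isolated covered blocks were exactly 72 bases long in 99.9% of cases, so depth was turned into starts of gapless 72-base alignments, with 0 negative counts. Levels were computed as CPM and RPKM, the latter over start positions where an alignment fits inside 1 exon. Spliced reads and exons under 72 bases are thus missed. The computation was tested on simulated data. Genes were placed on mm9 by sliding GENCODE M21 exon spacing over depth (correlation of at least 0.4 and 0.1 above other places), or else by the shift of both neighbours. A tolerance of 10 bases between those shifts, and dropping places contradicted by neighbours, were chosen after seeing the data. Of 19 methylation genes 14 were placed by their own exons and 5 by neighbours; Fshr, Alas2, Hba-a1, Hba-a2, Mos and Zp2 were not placed, and Hbb-b1 was not found in the annotation. All placed genes of the lists are reported as fixed by rule.

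Windows of 1 kb with a mean of at least 10 CPM were tested by a chi-square test with Benjamini-Hochberg adjustment (0.05) and a fold limit of 4. Alternatives covered counting, exon sets, scaling, thresholds and leaving out each litter. Values are means with SD over litters; SD measures the spread between litters. The members and lists were chosen with earlier results of these data known. Python 3.11.15, numpy 2.4.6, scipy 1.17.1, pandas 2.3.3 and matplotlib 3.10.9 were used.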

Additional observations from a re-analysis of the deposited data

Results flagged for a closer look

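A covered stretch outside any annotated exon was present in all 3 litters near Dnmt1. It lay at chr9:20711210-20711473 (mm9, 264 bases), 182 bases past the annotated 3' end of Dnmt1. Litter 1 had 13 alignments in it, litter 2 had 11 and litter 3 had 48, each more than the limit of 3 for a count of 0. It drew attention because no comparison of exon levels uses it. Its level was highest in litter 3, where the Dnmt1 exon level as a whole was lowest, although 9 single exons were highest there. Strand is not recorded, so the gene it belongs to was not determined.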

How the results depend on the processing

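Of 81 alternatives over 11 results, 55 moved the value by less than the spread between litters (for counts, less than 1.5 times). Another 26 moved it by more, and 0 turned the direction of a mean round. In litter 2 alone, the Dnmt3l 3' to 5' log2 ratio turned from 0.76 to -0.81 without the last exon. By the sides of the midpoint it was -1.01. Apart from window counts, leaving out 1 litter could not count as moved, since it shifts a mean of 3 by only part of its SD. Removing recurring runs could not either, as none was found. The causes were not tested. No paired analysis was possible because there is only 1 group of samples. The Dnmt1 level (244 RPKM) was 107 with each start counted once, 383 scaled without the 100 highest windows, 149 as mean depth over all exon bases, 138 over the union of annotated exons, 163 in the longer exons that fit a pair of alignments, and 60.8 as the median over exons. The Dnmt3l level (7.80 RPKM) was 30.8, 12.3, 3.98 and 3.91 under the first 4 of these, 5.52 without the last exon and 2.98 as the median over exons. The log2 ratio of Dnmt1 to Dnmt3l (4.996) was 1.80 with each start once, 5.25 by mean depth, 4.05 in the longer exons, 5.82 without the last exon and 4.27 by medians. The Dnmt1 intron level (0.0152% of exons) was 0.153% with each start once and 0.139% by mean depth. The 3' to 5' log2 ratio was -1.30 with each start once and -1.18 for the sides of the midpoint in Dnmt1 (-4.46), and 0.20 without the last exon in Dnmt3l (1.62). The windows differing between litters numbered 5943 at a fold limit of 2 and 18397 at 1 CPM (1903 otherwise). Chosen after seeing the data were the placement without the first exon, the medians, the overhang of up to 5 bases and the removal of recurring runs. Leaving out 1 litter gave 230 to 265 RPKM for Dnmt1, 7.20 to 8.99 for Dnmt3l, 4.88 to 5.07 for their log2 ratio, -4.90 to -3.93 and 1.11 to 2.06 for the 3' to 5' ratios, and 115 to 1691 windows. Dnmt3l values rest on 148 to 270 alignments a litter.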
